A study of Mus musculus with 138 samples.

Results

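The frontal bone ends in an osteogenic front (OF), a rim of dividing and differentiating osteoblast precursors, at each suture that it borders. At the midline it faces its partner across the frontal suture, and at its rear edge it faces the parietal bone across the coronal suture. The 10 libraries described here compared these edges at E18.5: 5 libraries of the frontal OF at the frontal suture and 5 of the frontal OF at the coronal suture, of 138 samples in the series. They were chosen by their labels for age, region and suture, and only the first library of each embryo was taken.

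All 10 libraries came from wild-type C57BL/6J embryos, with no transgene or treatment in either group and a separate embryo behind each library. Each front was cut by laser from fresh frozen sections, and its RNA was amplified before the library was made. The frontal-suture embryos belonged to 3 litters and the coronal-suture embryos to 2. A single litter gave embryos to both groups, with 1 in the frontal-suture group and 2 in the coronal-suture group. Since each embryo gave only 1 of the 2 edges, litter and suture were largely confounded. Throughout, the front difference is the log2 level at the frontal suture minus that at the coronal suture, and levels are CPM, counts relative to the library total, after TMM scaling.

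Bone grows at these fronts as mesenchymal cells commit to the osteoblast lineage under the transcription factors Runx2 and Sp7, divide, lay down type I collagen and later mineralize it. The suture mesenchyme (SM) between the fronts stays unmineralized. Both fronts sampled here belong to the same bone, which derives from the neural crest, whereas the parietal bone opposite it at the coronal suture and the coronal SM derive from mesoderm. At the coronal suture the bones overlap, and at the frontal suture they meet end to end with a wide mesenchyme between them.

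The depth of the 2 groups did not overlap. The frontal-suture libraries held 7988898 to 11099432 counts and the coronal-suture libraries 20713756 to 28330463 (two-sided exact permutation test, p = 0.007937, the smallest that 5 against 5 libraries allow). Mitochondrial genes took 22.57 to 52.35% of counts at the frontal suture and 21.52 to 25.32% at the coronal suture (exact permutation p = 0.1111). The highest shares, 35.59% and 52.35%, were those of frontal-suture embryos 2 and 5, and embryo 5 was the frontal-suture embryo of the shared litter. The median Spearman correlation of a library with the other 4 of its group was lowest for frontal-suture embryo 5 (0.89) and coronal-suture embryo 2 (0.926). Each of the other 8 libraries reached 0.93 or more. Without frontal-suture embryos 2 and 5 the count of genes that differed fell from 3368 to 2228.

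Complete sutures served as controls for the library batch. Each of the 4 sutures had a library in each of 4 control sets, which the labels name C, IF, L and S. If set C matches the batch of the coronal libraries and set IF that of the frontal libraries, as their letters do, the offset between these sets can be taken out of the front difference. The labels do not state that match, nor whether set C goes with the first coronal libraries or with the second ones described below. They also give 1 replicate number for each complete suture, so that its 4 libraries may share an RNA. The 8 libraries of sets C and IF alone estimated the offset. Between sets, libraries of the same complete suture correlated at 0.953 to 0.98 (Spearman, 24 pairs), separate embryos of 1 front at 0.888 to 0.97 (frontal suture, 10 pairs) and 0.925 to 0.96 (coronal suture, 10 pairs), and the pairs between the 2 fronts at 0.827 to 0.943 (25 pairs).

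Of 55487 genes in the files, 19768 passed the minimum level and were tested with edgeR's quasi-likelihood test and Benjamini-Hochberg adjustment over all of them, at 0.05. The front difference was called for 3368 genes, 17% of those tested, with 1318 higher at the frontal suture (6.67%) and 2050 higher at the coronal suture (10.4%). Higher genes made up 39.13% of these calls, and 56.82% with median-ratio scaling or 59.15% in DESeq2, which moved the median of all genes by 0.131 (log2) upwards. The control offset was itself called for 871 genes (4.41%), 157 higher (0.794%) and 714 lower (3.61%) in set IF. Across all genes the offset and the front difference had a Pearson r of 0.047, and they share no library. With the offset removed, 2060 genes were called (10.4%), 935 higher (4.73%) and 1125 lower (5.69%). Higher genes were then 45.39% of calls, against 57.11% with median-ratio scaling, 58.31% in DESeq2 and 23.86% with total counts alone, which moved the median of all genes by -0.245. Both fits called 1397 genes with the same sign (7.07%), 450 higher (2.28%) and 947 lower (4.79%). Called below means called in both fits unless said otherwise.

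**Figure D1:**
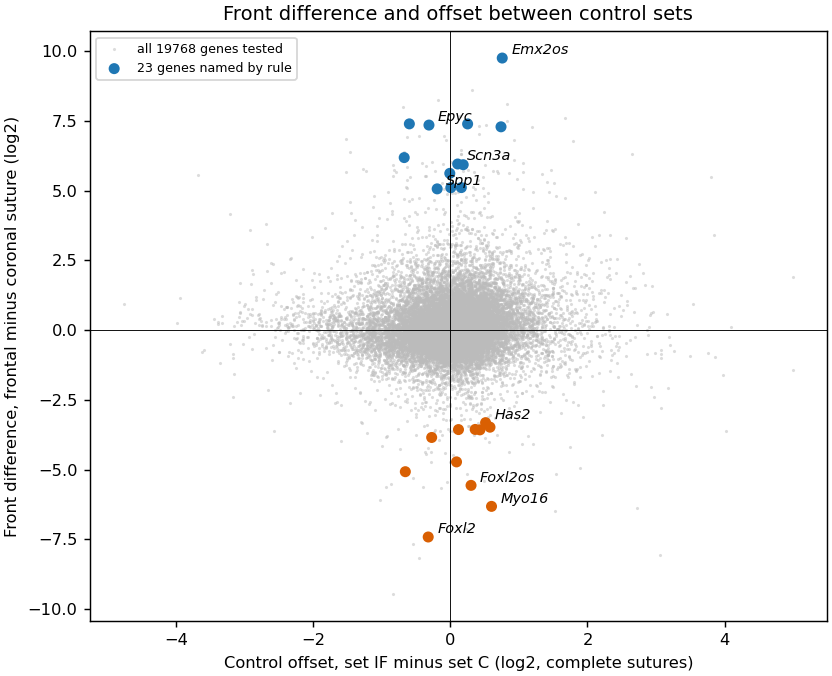
Front difference at E18.5 (y axis, log2, frontal minus coronal suture) against the offset between control sets IF and C (x axis, log2, complete sutures), with 1 grey point for each of 19768 genes and coloured points for the 23 genes named by rule. The named genes lie far from 0 on the y axis by the rule that chose them, which also favours small offsets. Their control offsets do not exceed 0.757 in size.

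The second library that existed for 3 of the 5 coronal-suture embryos (1, 3 and 5) held 12826124 to 14434063 counts, nearer to the frontal-suture depth. How these libraries were made is not stated. The libraries of control set C held 14174133 to 15155332 counts. Mitochondrial genes took 12.02 to 14.48% of counts in the second libraries and 21.22 to 24.74% in set C. In the first coronal libraries they took 21.52 to 25.32%. Whether the offset belongs to the first or to the second coronal libraries was not tested. With the second libraries in place of the first coronal libraries, 5241 genes were called before and 1103 after removal of the offset, and r between the front difference and the offset was 0.299. Of the 1397 genes called in both fits, 791 were also called in this way with the offset removed (4% of all genes tested), 278 higher (1.41%) and 513 lower (2.6%).

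Both groups held the markers of bone-forming cells. Runx2, which commits cells to the osteoblast lineage, stood at 685 to 1203 CPM at the frontal suture and 567 to 804 CPM at the coronal suture. Sp7, which acts after it, stood at 122 to 309 CPM and 173 to 356 CPM. The bone sialoprotein gene Ibsp ranged from 1007 to 3712 CPM and from 1882 to 4431 CPM. The ranges overlapped for each of the 3 genes. Their front differences were 0.34 ± 0.13 for Runx2 (SE, adjusted p = 0.0655), -0.15 ± 0.28 for Sp7 (adjusted p = 0.775) and -0.26 ± 0.68 for Ibsp (adjusted p = 0.849), n = 5 and 5 in the edgeR fit. None of the 3 passed the threshold in this fit. Runx2 did under several alternatives, DESeq2 among them (0.49, adjusted p = 0.00346), with values of 0.17 to 0.69 over 21 alternatives and -0.39 to 0.24 less the offset. The sign of Sp7 and Ibsp turned when coronal-suture embryo 2 was left out.

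Several genes of bone matrix were higher at the frontal suture, while most of the osteoblast list was not called. Of 17 tested genes of osteoblast differentiation, 5 were called higher in the front difference, the same 5 in both fits, and 1 lower in the front difference alone, beside 6.67% and 10.4% of all genes. The 5 were Spp1, Bglap, Bglap2, Col1a1 and Pth1r. The median front difference of the list was 0.08 (-0.05 less the offset), against 0.025 over all genes, and 8 of the 17 values were below 0. Over the alternatives the front difference called 3 members higher (only the 10 libraries in the fit) to 7 (without coronal-suture embryo 2), and the fit less the offset 3 (second coronal libraries) to 5.

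Spp1 encodes osteopontin, a phosphoprotein of mineralizing matrix. It stood at 589, 380, 537, 2260 and 3608 CPM in frontal-suture embryos 1 to 5, and at 9.67, 32.0, 23.2, 78.3 and 76.6 CPM in coronal-suture embryos 1 to 5. Every frontal-suture library lay above every coronal-suture library, with embryos 4 and 5 highest in the frontal-suture group. The front difference was 5.07 ± 0.71 (SE, adjusted p = 3.91e-08), and 5.28 ± 0.90 less the offset. In SM of the frontal suture the median was 3.94 CPM and in SM of the coronal suture 6.00 CPM. Spp1 in complete sutures went the other way, at 569 to 898 CPM in the 4 frontal and 2650 to 4094 CPM in the 4 coronal libraries, a difference of -2.17 ± 0.66 (adjusted p = 0.0279). That test took the 4 libraries of each complete suture as separate samples, though they may share an RNA.

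Bglap, the osteocalcin gene of mature osteoblasts, read 5.92, 2.33, 4.32, 21.6 and 8.29 CPM at the frontal suture. At the coronal suture it read 0.169, 0.737, 0, 0.731 and 0.616 CPM. The groups did not overlap, and the front difference was 4.21 ± 1.14 (adjusted p = 0.00499). Its near-identical neighbour Bglap2 gave 4.42 ± 1.03 (adjusted p = 0.00106), and reads could have been split between them. Complete coronal sutures held more Bglap (56.4 to 165 CPM) than complete frontal sutures (3.52 to 20.1 CPM), again the opposite order. Its promoter, on the minus strand at chr3:88384417-88384716 (GRCm38.p6, RefSeq), is shown since ACCACA, the core that Runx factors bind, occurs in it once (capitals; both strands searched).
Bglap: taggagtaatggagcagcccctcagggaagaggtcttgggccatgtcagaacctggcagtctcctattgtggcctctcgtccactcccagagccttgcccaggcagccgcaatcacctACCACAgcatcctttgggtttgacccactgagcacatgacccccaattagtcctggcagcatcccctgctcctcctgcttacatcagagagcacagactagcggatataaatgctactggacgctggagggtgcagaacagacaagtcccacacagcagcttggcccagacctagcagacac

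That motif was present in 4 of 15 promoters of the osteoblast list (26.7%) and in 5 of 14 of the osteocyte list (35.7%), beside 16.8% of 32851 promoters of the same length. A match marks letters only and shows no binding.

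Genes of osteocytes, the cells that mature bone encloses, were divided. Of 12 tested members of the osteocyte and mineralization list, 3 were called higher (Dmp1, Phex and Dkk1) and 3 lower (Cd44, Slc20a1 and Slc20a2), beside 2.28% and 4.79% of all genes. The list had a median front difference of -0.30, and of 0.07 less the offset. Dmp1, a matrix protein of osteocytes, read 43.4, 26.8, 49.5, 236 and 87.1 CPM at the frontal and 2.75, 7.81, 8.93, 16.7 and 23.3 CPM at the coronal suture. Phex, an endopeptidase gene of phosphate balance, read 84.5, 93.8, 56.3, 181 and 237 CPM against 10.6, 25, 11.3, 19.6 and 11.3 CPM. Neither gene overlapped between the edges. The front differences were 2.89 ± 0.67 for Dmp1 (adjusted p = 0.000808) and 3.07 ± 0.53 for Phex (adjusted p = 7.68e-06). Less the offset, Dmp1 lost its call under 2 of 21 alternatives. For Dkk1, a secreted Wnt inhibitor, the range of 13.1 to 91.0 CPM touched that of 2.87 to 15 CPM (2.37 ± 0.49, adjusted p = 0.000188). Among the genes that were lower, Cd44, the hyaluronan receptor, stood at 229 to 387 CPM against 527 to 993 CPM (-1.40 ± 0.22, adjusted p = 8.99e-07).

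In complete sutures, 15 of the 17 osteoblast genes were called lower in the frontal than in the coronal suture, and 0 higher, where 3.34% and 2.38% of all genes were called (5.72% in either direction). The median over the list was -1.54 there. Markers of other cells moved with it. All 7 tested osteoclast markers were called lower in the complete frontal sutures, with a median of -5.48, and 7 of 8 skeletal muscle markers, with a median of -4.00. Their part in the difference of the osteoblast genes was not tested. A complete suture holds more than the edge of 1 bone. Its 4 libraries were taken as separate samples but may share an RNA, so these calls may rest on 1 RNA per suture. The difference between complete sutures also estimated the fit with the offset, so the fronts and the complete sutures are given side by side and no overlap is drawn from them.

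**Figure D2:**
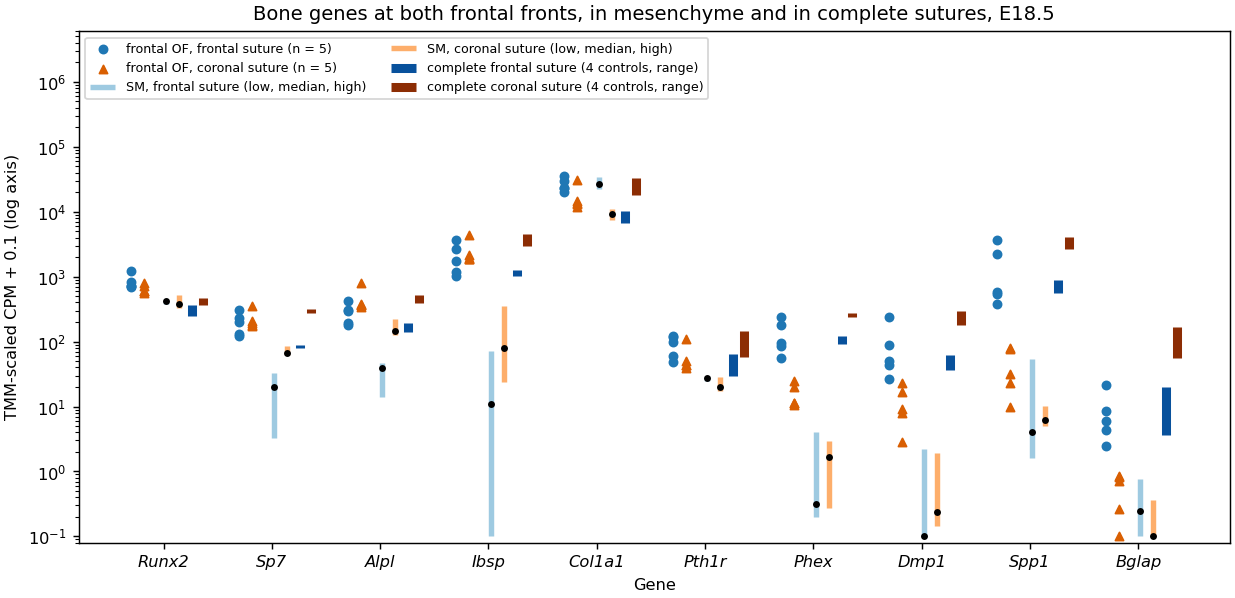
TMM-scaled CPM + 0.1 (y axis, log) of genes of bone formation (x axis) at E18.5, with points for the 5 + 5 front libraries, lines from the lowest to the highest SM library with a dot at the median, and thick lines for the range of 4 complete-suture libraries. For Spp1 the frontal-suture fronts (380 to 3608 CPM) lie above the coronal-suture fronts (9.67 to 78.3 CPM), while the complete coronal sutures lie above the complete frontal ones.

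Of the genes of the type I collagen chains, Col1a1 was called higher and Col1a2 was not. Col1a1 stood at 23541, 22818, 19981, 30070 and 35759 CPM at the frontal suture and at 11805, 30224, 14803, 13444 and 13184 CPM at the coronal suture. Coronal-suture embryo 2 alone reached the frontal-suture range. The front difference of Col1a1 was 0.66 ± 0.18 (adjusted p = 0.00559). It lost its call under 4 of 21 alternatives, with values of 0.34 to 0.70, and under 2 less the offset. Col1a2 read 17799 to 25593 CPM against 14368 to 32340 CPM (0.20 ± 0.16, adjusted p = 0.445). Pth1r, the receptor of parathyroid hormone, read 118, 49.1, 96.8, 122 and 60.5 CPM against 50.7, 111, 42.8, 42.8 and 38.7 CPM, with the same embryo high (0.64 ± 0.21, adjusted p = 0.0255). Its call was lost under 8 of 21 alternatives, and its sign turned under 1 more. The value of Pth1r was -0.17 with the second coronal libraries and -0.31 within the shared litter. Less the offset it was 0.91 to 2.12 over 21 alternatives.

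Genes of cell division were lower at the frontal-suture front. Of 28 tested genes of the cell cycle list, 24 were called lower and 0 higher in the front difference, beside 10.4% and 6.67% of all genes. With the offset removed as well, 16 were called lower and 0 higher, beside 4.79% and 2.28% of all genes. The list had a median front difference of -0.92 (-0.88 less the offset). All 28 values were below 0, also with each other scaling tried (27 or 28 less the offset). Values of 17 members did not overlap between the groups with the frontal suture lower and of 0 with it higher, beside 6.71% and 4.49% of all genes. Some genes of heat shock and stress moved with them. Of 16 tested, 7 were called lower in the front difference and 2 in both fits (Hspa8 and Hsph1), beside 10.4% and 4.79% of all genes, with a median of -0.74 and a summed level of 795 to 1292 CPM against 1358 to 2647 CPM. The mitochondrial shares of 35.59% and 52.35% in frontal-suture embryos 2 and 5 are given above. The part of these in the cell cycle difference was not tested, and without both embryos the median of the cell cycle list was -1.01.

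The members span replication and mitosis. Rrm2, a subunit of the enzyme that makes deoxynucleotides, read 26.4, 27.6, 28.4, 37.2 and 24.7 CPM against 54.0, 122, 98.6, 72.3 and 79.9 CPM (-1.56 ± 0.21, adjusted p = 2.79e-08). Ccna2, cyclin A2 of S phase and G2, read 52.0 to 76.0 CPM against 124 to 189 CPM (-1.36 ± 0.17, adjusted p = 3.20e-09). Top2a, the topoisomerase that untangles replicated chromosomes, read 154 to 282 CPM against 303 to 449 CPM (-0.91 ± 0.17, adjusted p = 2.49e-05). In none of these 3 genes did the groups overlap. Plk1, a mitotic kinase, read 12.1, 6.44, 14.1, 15.4 and 5.32 CPM against 23.2, 43.7, 27.7, 23.2 and 34.8 CPM (-1.50 ± 0.26, adjusted p = 8.14e-06). Ccnb2, cyclin B2, read 19.9 to 28.6 CPM against 31.3 to 99.5 CPM (-1.15 ± 0.24, adjusted p = 0.000193), where coronal-suture embryo 2 was highest. Less the offset, Ccnb2 lost its call under 8 of 21 alternatives. Mki67 was among the 4 members not called, with frontal-suture embryo 5 (1374 CPM) above all coronal-suture libraries (825 to 1175 CPM) and a value of -0.40 ± 0.21 (adjusted p = 0.196). Over 21 alternatives Mki67 read -0.87 to -0.24 and was called lower under at least 1 of them.

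Promoters of Ccnb2 and Plk1 are printed since members of this list moved together and both carry the letters of a CCAAT box, bound by NF-Y, and of the TTTGAA element of cell cycle genes. Both motifs are in capitals and were searched on both strands. The windows run from 250 bases before to 50 bases after the RefSeq start (GRCm38.p6). Ccnb2 lies on the minus strand at chr9:70421505-70421804 and Plk1 on the plus strand at chr7:122159185-122159484.
Ccnb2: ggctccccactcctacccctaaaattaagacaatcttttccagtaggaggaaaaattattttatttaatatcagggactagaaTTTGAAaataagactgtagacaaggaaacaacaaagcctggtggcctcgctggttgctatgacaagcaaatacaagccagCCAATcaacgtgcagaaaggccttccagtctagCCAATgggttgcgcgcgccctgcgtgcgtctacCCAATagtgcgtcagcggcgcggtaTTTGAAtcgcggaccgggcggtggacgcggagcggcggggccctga
Plk1: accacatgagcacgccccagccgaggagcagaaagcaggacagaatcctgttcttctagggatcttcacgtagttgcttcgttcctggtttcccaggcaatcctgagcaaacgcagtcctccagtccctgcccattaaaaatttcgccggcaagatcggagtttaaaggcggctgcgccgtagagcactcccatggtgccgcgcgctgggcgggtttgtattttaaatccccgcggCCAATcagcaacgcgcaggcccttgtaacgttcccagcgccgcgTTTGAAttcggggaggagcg

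CCAAT occurred 3 times and TTTGAA 2 times in the Ccnb2 window, and each occurred once in that of Plk1. Of 22 promoters matched to the list, 21 held CCAAT (95.5%) and 13 held TTTGAA (59.1%), beside 37.4% and 17.9% of 32851 promoters. Both motifs stood together in 13 of the 22 (59.1%), beside 6.95% of all.

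The count in the cell cycle list depended on the fit. The front difference alone called 21 to 26 members lower over all alternatives. Less the offset, the range was 9 to 22, with 9 when only the libraries compared were fitted, 10 with median-ratio scaling, 10 with no low-count filter, 11 without coronal-suture embryo 2 and 22 with total counts. In SM of the same embryos all 28 were called lower in the frontal than in the coronal suture (14.4% of all genes). In complete sutures 0 of 28 were called by edgeR, DESeq2 or voom, beside 5.72% of all genes in edgeR, so few calls could be awaited. In edgeR 5 had an unadjusted p under 0.05, and the list had a median of -0.18. At E16.5 the fronts differed for 11 members, 9 lower and 2 higher at the frontal suture, beside 17% and 16.8% of all genes.

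**Figure D3:**
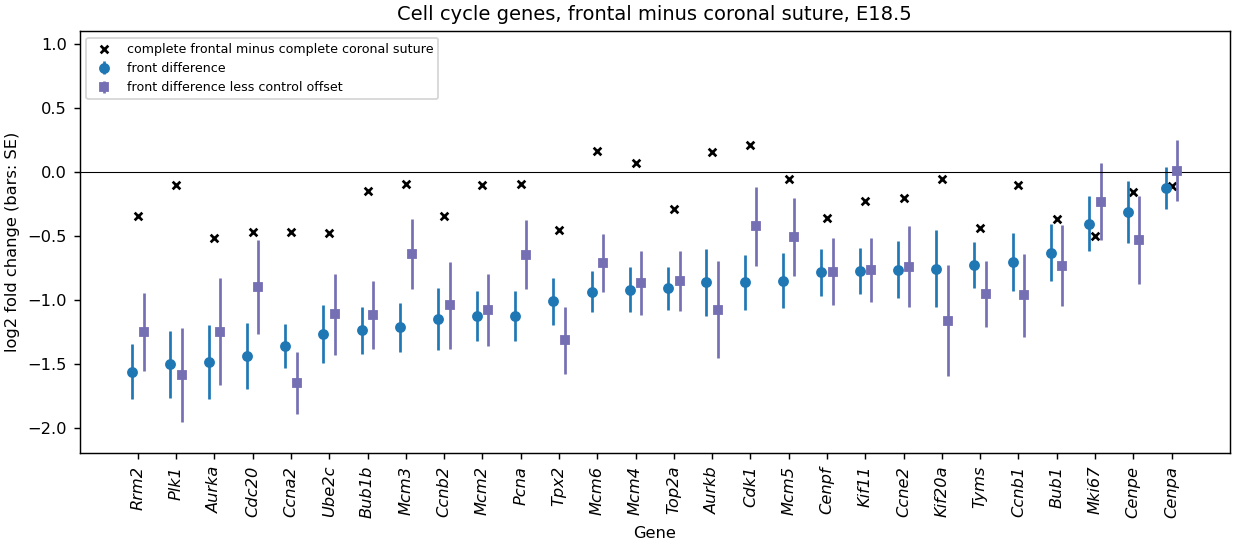
Front difference of the 28 cell cycle genes at E18.5 (y axis, log2 fold change ± SE, frontal minus coronal suture) before (circles) and after (squares) removal of the control offset, with crosses for the difference between complete sutures. All 28 circles lie below 0, with a median of -0.92.

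The genes with the largest differences are given next, 23 genes in both directions, as the fits ranked them. The choice used the fitted differences and the separation of the 10 libraries, so these folds are descriptions. With the second coronal libraries and the offset removed all 23 were called, in a fit that shares the frontal-suture libraries and the embryos with the choice. The control offset was called for 0 of the 23 in edgeR, DESeq2 or voom (4.41% of all genes in edgeR), and its unadjusted p was under 0.05 for 0. The rule needed a call with the same sign before and after removal of the offset, which favours small offsets. These counts are therefore no test of the offset in the 23 genes. In SM at E18.5, 21 of 23 were called with the same sign (9.6% of all genes were called higher and 14.4% lower). At the fronts at E16.5, 15 were (16.8% of all genes higher and 17% lower). Neither of these comparisons had the offset taken out.

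**Figure D4:**
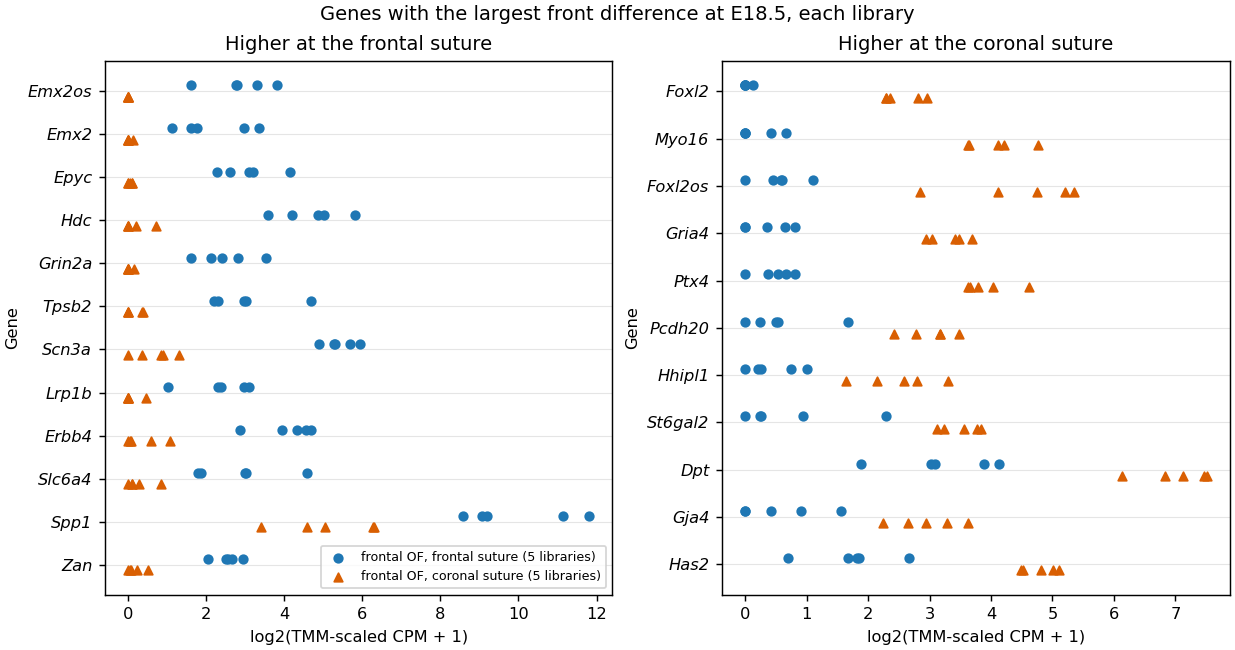
Level of the 23 genes named by rule in each of the 10 libraries (x axis, log2(TMM-scaled CPM + 1), circles for the frontal-suture front and triangles for the coronal-suture front), with genes higher at the frontal suture in one panel and genes lower there in the other. By the rule no gene has overlapping groups.

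Transcription factors were among the genes of both directions. Emx2, a homeobox gene of forebrain, urogenital and limb girdle development, read 2.39, 6.81, 2.06, 1.19 and 9.22 CPM at the frontal suture and 0, 0, 0.0921, 0 and 0 CPM at the coronal suture. With 2 reads in the coronal group, the ratio of counts per total was 222, with a 95% interval of 60.6 to 1845 that covers counting error only. Its antisense transcript Emx2os had 333 reads against 0, at least 262-fold higher, taking 3 reads over the group as the limit of a 0. The 2 genes lie on opposite strands of chromosome 19 (mm10) and share positions 59458372 to 59458635, where counting without strand could not tell them apart.

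Foxl2, a forkhead gene of the ovary and eyelid, ran in the opposite direction. It read 0, 0, 0.0981, 0 and 0 CPM against 4.14, 3.90, 6.82, 6.01 and 3.90 CPM. Its antisense neighbour Foxl2os read 0 to 1.14 CPM against 6.20 to 39.6 CPM, and the pair overlaps at positions 98955288 to 98955299 of chromosome 9. In SM the median of Foxl2 was 0.0961 CPM at the frontal and 9.33 CPM at the coronal suture.

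Among 38 tested transcription factors of skull patterning, 7 were called higher and 1 lower in both fits, beside 2.28% and 4.79% of all genes (11 and 5 in the front difference alone, beside 6.67% and 10.4%). The 7 were Zic1, Zic4, Tbx15, Shox2, Osr1, Osr2 and Foxc1. Zic1, a zinc finger factor of neural and skull development, read 56.0, 61.7, 55.2, 48.6 and 44.1 CPM against 16.2, 21.0, 14.7, 17.8 and 25.2 CPM (1.48 ± 0.19, adjusted p = 5.60e-09). Tbx15, a T-box factor of craniofacial skeleton, read 51.0, 47.8, 62.4, 52.8 and 179 CPM against 15.2, 15, 13, 10.3 and 12.4 CPM (2.57 ± 0.39, adjusted p = 3.30e-07). Both genes were separate between the edges, with frontal-suture embryo 5 far above the rest for Tbx15. Shox2 (5.15 ± 1.12), Osr2 (5.87 ± 1.07) and Osr1 (2.71 ± 0.61), factors of limb and palate development, were low at both edges and reached at most 11.5 CPM. Zic4 overlaps Zic1 on chromosome 9 (91362413 to 91365810), so its value (1.88 ± 0.39) was not independent. Tfap2b, a neural crest factor, read 30.1 to 68.3 CPM against 1.84 to 6.08 CPM (3.91 ± 0.74, adjusted p = 5.08e-05), but missed the threshold once the offset was removed (2.96 ± 1.1, adjusted p = 0.0698). Less the offset, Tfap2b read 2.37 to 3.91 over 21 alternatives and passed under at least 1 of them. Msx2, a homeobox gene of calvarial growth, was lower in the front difference (-0.86 ± 0.22, adjusted p = 0.00233) and not in the fit less the offset (-0.10 ± 0.31, adjusted p = 0.902).

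Other named genes higher at the frontal suture have varied roles. Scn3a, the alpha subunit of a voltage-gated sodium channel, read 38.5, 37.6, 28.9, 50.7 and 60.5 CPM against 0.802, 0, 0.276, 0.853 and 1.48 CPM (5.96 ± 0.73, adjusted p = 8.29e-10). In SM it stayed at or below 3.55 CPM in both sutures, and in complete sutures it did not separate (11.9 to 14.8 CPM frontal, 13.4 to 21.2 CPM coronal). Its front difference exceeded the SM difference by 3.83 ± 0.99 (adjusted p = 0.0179), which missed the threshold with the embryo as a block (3.95 ± 1.19, adjusted p = 0.159). Epyc, a small leucine-rich proteoglycan first known from cartilage, read 3.82 to 16.9 CPM against 0 to 0.0821 CPM. Erbb4, a neuregulin receptor, read 6.36 to 24.5 CPM against 0 to 1.1 CPM (5.62 ± 0.73). Grin2a, a glutamate receptor subunit, Lrp1b, a lipoprotein receptor-like gene, and Zan, a sperm membrane protein gene, each stayed under 11 CPM at the frontal and under 0.5 CPM at the coronal suture.

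The named genes higher at the coronal suture included Dpt, Has2 and Gja4 of matrix and cell contact, with smaller folds than Foxl2 or Myo16. Dpt, dermatopontin, which binds collagen fibrils, read 7.52, 13.8, 7.16, 2.71 and 16.4 CPM at the frontal and 69.0, 176, 112, 139 and 181 CPM at the coronal suture (-3.85 ± 0.65, adjusted p = 3.82e-06). Has2, a hyaluronan synthase, read 2.62, 5.32, 2.55, 2.21 and 0.625 CPM against 22, 31, 21.5, 33.6 and 27.2 CPM (-3.31 ± 0.49, adjusted p = 2.03e-07). Hyaluronan has Cd44 as its receptor, which was also lower at the frontal suture as given above. Myo16, an unconventional myosin, read 0 to 0.594 CPM against 11.4 to 26.2 CPM (-6.32 ± 1.08). Gja4, connexin 37 of vascular gap junctions, read 0 to 1.94 CPM against 3.73 to 11.3 CPM (-3.48 ± 0.86). For Ptx4, Pcdh20, Hhipl1 and St6gal2, a pentraxin, a protocadherin, a gene related to Hhip and a sialyltransferase, the front differences ran from -5.07 to -3.56. Gria4, an AMPA receptor subunit, was lower at the fronts (-4.72 ± 1.05, adjusted p = 0.000455) but stood at 17.5 to 24.1 CPM in complete frontal and 3.28 to 4.18 CPM in complete coronal sutures.

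The matrix list divided. Of 32 tested collagens and proteoglycans, 6 were called higher and 5 lower in both fits, beside 2.28% and 4.79% of all genes. The tenascins marked the coronal-suture front: Tnn read 322, 326, 255, 352 and 301 CPM against 1087, 2117, 1510, 1664 and 1751 CPM (-2.38 ± 0.22, adjusted p = 2.10e-14), and Tnc read 887 to 1744 CPM against 2430 to 4186 CPM (-1.31 ± 0.14, adjusted p = 1.13e-11). The small proteoglycans decorin and fibromodulin were higher at the frontal suture. Dcn read 503 to 640 CPM against 179 to 310 CPM (1.44 ± 0.28, adjusted p = 5.12e-05), and Fmod read 126 to 285 CPM against 54.9 to 108 CPM (1.40 ± 0.27, adjusted p = 4.24e-05). None of these 4 genes overlapped between the edges. All 4 had a larger difference of the same sign in SM, from -3.35 for Tnn to 3.92 for Dcn. Of 18 metalloproteinases and inhibitors, read against the same shares, 1 was called higher, the collagenase Mmp13 (1.90 ± 0.62, adjusted p = 0.0232; lost under 4 of 21 alternatives), and 5 lower, among them the gelatinase Mmp2 (-1.56 ± 0.20, adjusted p = 2.16e-09).

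Calls in the signalling pathways are in both fits unless said otherwise and stand beside 2.28% of all genes called higher and 4.79% called lower. In the hedgehog pathway, where Ihh from bone acts through Ptch1 and Smo on Gli factors, 0 of 12 tested members were called higher and 2 lower. Hhip, a membrane antagonist that binds hedgehog ligands, read 63.3, 82.7, 55.1, 62.4 and 64.7 CPM at the frontal and 247, 352, 380, 282 and 361 CPM at the coronal suture. The groups were far apart, with a front difference of -2.30 ± 0.35 (adjusted p = 3.30e-07). In SM the distance was greater, with medians of 3.36 and 413 CPM, and the front difference exceeded the SM difference by 4.34 ± 0.51 (adjusted p = 1.97e-09). At the frontal suture the fronts stood above their SM (0.583 to 8.87 CPM), and at the coronal suture they overlapped it (322 to 663 CPM). Gli3, the repressor among the Gli factors, was lower by less (63.3 to 83.0 against 99.9 to 129 CPM, -0.78 ± 0.13). The target genes Ptch1 (-0.04 ± 0.21, adjusted p = 0.926) and Gli1 (0.76 ± 0.30, adjusted p = 0.0681) were not called at the fronts, and the sign of Ptch1 changed with scaling. Gli1 passed the threshold under some alternatives, among them DESeq2 (0.89, adjusted p = 0.0210) and the fit without frontal-suture embryo 5 (0.93, adjusted p = 0.0296), and under none of the 21 less the offset. For both genes the front difference exceeded the SM difference, by 1.77 ± 0.30 for Ptch1 and 2.67 ± 0.44 for Gli1. That comparison sets differences against each other and does not place either gene higher at the frontal-suture front.

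In the Wnt pathway, 2 of 31 tested members were called higher and 1 lower. Sfrp2, a secreted Wnt modulator, read 623, 499, 716, 341 and 606 CPM against 35.5, 48.3, 45.9, 51.5 and 24.8 CPM (3.76 ± 0.30, adjusted p = 9.23e-18), a wide gap between the groups. Its SM medians were 2652 and 116 CPM, and complete sutures had the same order. Lgr6, an R-spondin receptor, read 10.1 to 27.9 CPM against 1.56 to 3.24 CPM (3.09 ± 0.50, adjusted p = 1.70e-06). Dkk3 was lower (-0.83 ± 0.15, adjusted p = 2.41e-05). In the BMP pathway, 1 of 25 was called higher and 2 lower. Chrdl1, an antagonist that binds BMP ligands, read 75.0, 94.2, 84.8, 113 and 243 CPM against 14.5, 16.9, 15.1, 20.6 and 6.65 CPM (3.05 ± 0.31, adjusted p = 2.06e-12). The ligand Bmp5 read 1.18 to 5.00 CPM against 11.3 to 22.1 CPM (-2.70 ± 0.47, adjusted p = 7.51e-06), so antagonist and ligand differed in opposite directions. Gdf6, the other ligand called, had 0 reads at the frontal suture and most of its coronal reads in embryo 4 (2.64 CPM), and less the offset it lost its call under 18 of 21 alternatives. Chrdl1 was not lower in coronal than in frontal SM (medians of 18.2 CPM frontal and 31.7 CPM coronal), and its front difference exceeded that of SM by 3.78 ± 0.43 (adjusted p = 6.48e-10).

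Of 17 FGF pathway genes, the ligand Fgf18 was called higher (8.31 to 22.9 against 0.217 to 9.34 CPM, 2.26 ± 0.51), with its call less the offset lost under 5 of 21 alternatives, and the receptor Fgfr2 lower (566 to 598 against 636 to 863 CPM, -0.37 ± 0.14, adjusted p = 0.0481). The front difference of Fgfr2 lost its call under 17 of 21 alternatives. Of 14 TGF-beta pathway genes, 0 were called higher and 4 lower: the ligands Tgfb2 (-1.04 ± 0.21) and Inhba (-1.30 ± 0.34), the receptor Tgfbr1 (-0.72 ± 0.15) and the induced matrix gene Tgfbi (-2.61 ± 0.40). Tgfbi read 14.8 to 21.3 CPM against 68.2 to 176 CPM. It was the 1 of the 4 also called with the second coronal libraries and the offset removed, and Tgfb2, less the offset, lost its call under 6 of 21 alternatives. Inhba did not hold within the shared litter, where frontal-suture embryo 5 (143 CPM) was in the coronal-suture range. The TGF-beta list had a median front difference of -0.45 and summed to 707 to 956 CPM against 989 to 1292 CPM. Of 14 Notch pathway genes, 6 were called lower in the front difference, beside 10.4% of all genes, and 1 of them, Notch1, in both fits. The Notch list had a median of -0.79 and summed to 194 to 345 CPM against 384 to 467 CPM, so the groups did not overlap. Of 14 retinoic acid genes 0 were called in both fits by edgeR or voom and 1 by DESeq2 (1 at an unadjusted p under 0.05 in edgeR), and of 18 ephrins and Eph receptors 2 were higher and 1 lower.

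Markers of other cells differed too. A bulk library does not tell fewer cells of a type from less RNA in each. Of 5 tested mast cell markers, all 5 were called higher at the frontal suture in the front difference and 4 in both fits (Cpa3, Cma1, Mcpt4 and Tpsb2), beside 6.67% and 2.28% of all genes. The fifth, Kit, lost its call in the front difference under 6 of 21 alternatives. Their summed level was 47.8 to 258 CPM at the frontal and 4.33 to 22.2 CPM at the coronal suture. Cpa3, a mast cell carboxypeptidase, read 69.1, 120, 144, 21.3 and 56.6 CPM against 0, 8.85, 0, 7.31 and 0 CPM (4.66 ± 1.02, adjusted p = 0.000365). The groups were separate, and coronal-suture embryos 1, 3 and 5 had no read of it. Hdc, the mast cell enzyme that makes histamine, and Slc6a4, the serotonin transporter, read 10.9 to 55.3 against 0 to 0.651 CPM and 2.46 to 23.1 against 0 to 0.802 CPM. All 5 markers were called higher in frontal than in coronal SM, beside 9.6% of all genes, and 4 in complete sutures.

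Smooth muscle and pericyte markers went the other way. Of 11 tested, 5 were called lower at the frontal suture in both fits (Acta2, Actg2, Cspg4, Myh11 and Rgs5), beside 4.79% of all genes, and their summed level was 251 to 415 CPM against 696 to 1297 CPM. Acta2, smooth muscle actin, read 27.4, 19.2, 20.6, 23.8 and 14.2 CPM against 151, 267, 140, 182 and 229 CPM (-3.20 ± 0.35, adjusted p = 1.41e-11). Myh11, smooth muscle myosin, read 2.05, 7.74, 3.92, 1.61 and 0.469 CPM against 75.9, 11.4, 4.65, 51.7 and 72.4 CPM (-3.75 ± 0.74, adjusted p = 7.40e-05). Acta2 did not overlap, whereas Myh11 did and was high in coronal-suture embryos 1, 4 and 5. Without coronal-suture embryo 5, or without frontal-suture embryo 2, 3 members were called. Acta2 was not called in SM (115 to 227 CPM frontal, 110 to 129 CPM coronal) or in complete sutures (0.25 ± 0.34, adjusted p = 0.875). Its front difference lay below that of SM by -3.81 ± 0.47 (adjusted p = 6.57e-09). At E16.5 the fronts had the opposite order, 28.2 to 108 CPM frontal and 3.17 to 32.5 CPM coronal, and the difference between the ages was -4.77 ± 0.48 (adjusted p = 2.37e-12). Gja4, the vessel gene given above, was also not called in SM (0.21 ± 0.76, adjusted p = 0.889) or in complete sutures (-0.33 ± 0.80, adjusted p = 0.951). Unlike that of Acta2, its front difference was not called against that of SM (-3.69, adjusted p = 0.0674 in edgeR). With the embryo as a block it was (-4.09 ± 0.91, adjusted p = 0.0359).

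**Figure D5:**
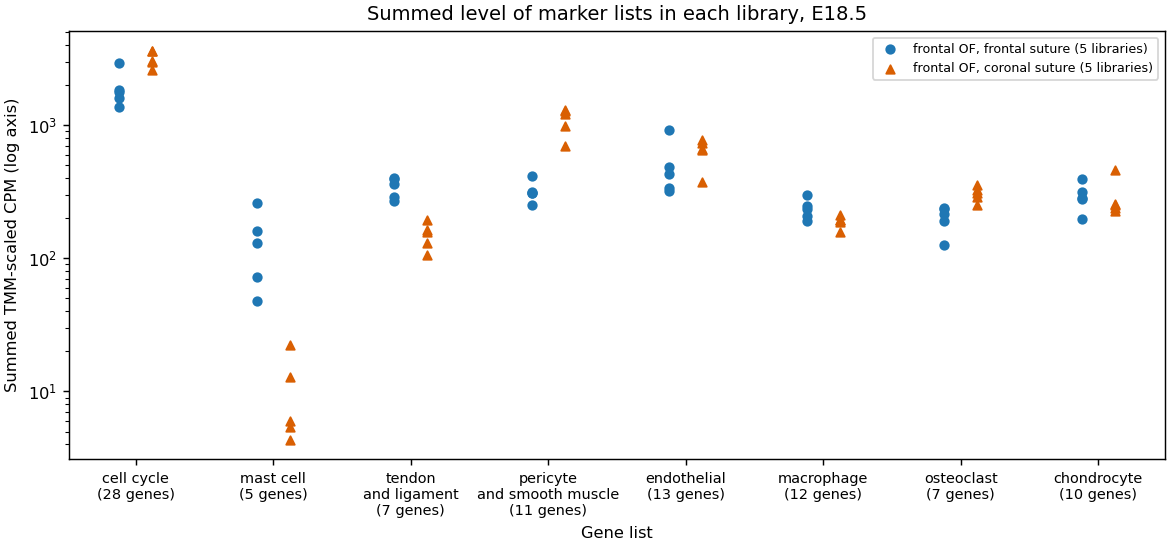
Summed TMM-scaled CPM (y axis, log) of gene lists (x axis) in each library at E18.5, with circles for the 5 frontal-suture and triangles for the 5 coronal-suture libraries. Mast cell markers lie at 47.8 to 258 CPM against 4.33 to 22.2 CPM, and pericyte and smooth muscle markers at 251 to 415 CPM against 696 to 1297 CPM.

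Tendon and ligament markers summed to 269 to 400 CPM against 106 to 195 CPM, and 2 of 7 were called higher, beside 2.28% of all genes. One was the tenocyte gene Tnmd, which read 25.7, 30.3, 29.7, 16.54 and 24.9 CPM against 1.6, 4.12, 2.21, 1.58 and 2.22 CPM (3.44 ± 0.39, adjusted p = 4.51e-11). The other was Fmod, which the matrix list above also counts. Frontal SM held more Tnmd (121 to 271 CPM) than the fronts did. The paper describes a frontal-suture mesenchyme enriched for Acta2, contractile and tendon genes, which it did not find in coronal SM. Neither this list nor that of smooth muscle therefore marks tenocytes or smooth muscle alone. At the fronts Acta2 was lower at the frontal suture, as given above. Of 7 osteoclast markers 2 were called lower, beside 4.79% of all genes, one of them Itgb3 (-1.86 ± 0.36, adjusted p = 5.21e-05). In both fits, 0 of 12 macrophage, 8 erythroid, 8 skeletal muscle, 14 neural, 6 Schwann cell and melanocyte, 5 epidermis and 3 adipocyte markers were called by edgeR, where 4 of these 56 had an unadjusted p under 0.05 in both fits, and DESeq2 and voom each called 1. Of 13 endothelial markers 1 was called lower, of 13 dura mater markers 1 higher, and of 10 hypodermis and dermal fibroblast markers 4 higher and 1 lower. The part of these cells in the differences of other genes was not tested.

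The front difference was set beside the difference between the SM of the same sutures. Of the 1397 genes called at the fronts, 999 (71.51%) were called with the same sign in SM at E18.5, in which 24% of all genes were called, 9.6% higher and 14.4% lower. The SM libraries came from the same embryos and litters as the fronts, so what the sutures share in these calls cannot be told apart from what the litters share. The same holds for a library batch common to a suture, since the SM difference had no offset taken out. The share called with the same sign in SM was 63.78% for genes higher at the frontal suture (287 of 450) and 75.18% for those lower (712 of 947). A front difference that departed from the SM difference was called for 394 genes (1.99%), 234 higher (1.18%) and 160 lower (0.809%), and 91 of the 1397 were among them. Fronts and SM came from the same embryos. A fit of only these 20 libraries called 278 genes, and with the embryo as a block 202, of which 157 were among the 394. An offset common to all libraries of a suture cancels in this comparison. Among the osteoblast genes 4 of 17 were called higher in it, Spp1, Sp7, Alpl and Dlx5, and Col1a1 lower (-0.92 ± 0.26, adjusted p = 0.0353). With the embryo as a block the 4 were called again and Col1a1 was not (-0.84 ± 0.29, adjusted p = 0.248).

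Of the same 1397 genes, 702 (50.25%) were called with the same sign between the fronts at E16.5, and 63 with the opposite sign. Of all genes 33.8% were called there, 16.8% higher and 17% lower. The share called with the same sign was 39.56% for genes higher and 55.33% for genes lower at the frontal suture. The change of the front difference between the ages was called for 3968 genes (20.1%), 1953 higher (9.88%) and 2015 lower (10.2%), and for 487 of the 1397. The count was 1554 with the second coronal libraries and 1635 without frontal-suture embryos 2 and 5. Of 23 named genes, 10 changed with age in this test. For 2 of them, Scn3a (5.37 ± 0.89, adjusted p = 4.65e-06) and Epyc (3.00 ± 1.1, adjusted p = 0.0409), the front difference rose with age. For the other 8 it fell, from -2.39 for Has2 to -7.52 for Gja4. Among these, Dpt changed by -5.57 ± 0.87 (adjusted p = 1.84e-06) and Gria4 by -6.53 ± 1.37 (adjusted p = 0.000278). At E16.5 Dpt stood at 9.43 to 42.2 CPM at the frontal and 0.351 to 10.8 CPM at the coronal suture, the reverse of E18.5. For Phex the change was 3.93 ± 0.72 (adjusted p = 3.07e-05), since at E16.5 the coronal-suture front held 83.0 to 234 CPM. The embryos of the ages differ, and so do their litters. A library batch common to both ages of a suture cannot be told apart from suture in the calls at E16.5, which had no offset taken out.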

How the data were processed

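Laser-captured fronts were sequenced from Nextera XT libraries of amplified RNA. Reads were trimmed with cutadapt and aligned to mm10 with STAR 2.5.3a, and the authors deposited counts of read pairs on exons of GENCODE vM22 genes, made with featureCounts 1.6.4 without regard to strand. These counts are whole numbers without normalization, 7988898 to 28330463 per library. Amplified reads without molecular identifiers are not independent molecules, so intervals and limits cover counting error only. The authors also deposited a table of 62 columns of log2 ratios between groups, which holds their own comparisons and was not used, and single-cell counts, which were not used here.

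A gene was kept when more than 10% of the 100 first captured libraries reached 1 CPM (19768 of 55487 genes). The study set the same threshold over a larger set of libraries from more sutures. The libraries were scaled by TMM. A quasi-likelihood model with 1 mean for each of 20 groups was fitted in edgeR 4.0.16 (R 4.3.3), two-sided, with Benjamini-Hochberg adjustment at 0.05. The SE given with a fold change was back-calculated, as the absolute log2 fold change over the square root of the F statistic. It therefore holds no information beyond the test. A second model added the 16 complete-suture libraries, 1 mean per complete suture and 1 offset per control set. Front differences at E18.5 were also compared with those of SM and of E16.5. Library-level values were tested by exact permutation over 252 arrangements (scipy 1.17.1). On simulated counts, with an equal spread for all genes and no batch, only the front difference of the first model was tried. The second model and the comparisons with SM and E16.5 were not simulated.

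The named genes were those called with the same sign in both fits, not overlapping between groups, with a mean of at least 2 CPM and a symbol that is no provisional name, pseudogene or sex-linked gene, ranked by the smaller of the 2 absolute log2 fold changes, 12 in each direction, of which 1 gene is not reported here. Members of the gene lists, given in the text by their counts, could be named with their values. The libraries and lists were chosen with earlier results of these data known. Symbols were matched for 55394 genes, and promoter sequences and start sites came from RefSeq on GRCm38.p6. Alternatives used limma-voom 3.58.1, DESeq2 1.42.0, median-ratio or total-count scaling, other low-count filters, only the libraries compared, second coronal libraries, replicate and embryo blocks, the shared litter and each replicate left out. Leaving out frontal-suture libraries 2 and 5, or the mitochondrial genes, was chosen after seeing the data. The replicate numbers do not pair the embryos of the 2 edges.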

Additional observations from a re-analysis of the deposited data

Results flagged for a closer look

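Among the genes given in the text, single libraries stood apart from the other 4 of their group beyond Dixon's limit. Chance alone flags about 1 in 20 groups. Coronal-suture embryo 2 was highest for Col1a1 (30224 CPM), Ibsp (4431 CPM), Mmp2 (840 CPM), Alpl (788 CPM), Sp7 (356 CPM), Dcn (310 CPM) and Pth1r (111 CPM), which are 7 genes of bone and matrix. Frontal-suture embryo 5, with the highest mitochondrial share, was highest for Dkk3 (406 CPM), Tbx15 (179 CPM) and Inhba (143 CPM) and lowest for Gli1 (35.5 CPM), and had the fewest genes with at least 5 counts (16427). The other such libraries were coronal-suture embryo 1 for Tfap2b (6.08 CPM, highest), embryo 3 for Notch1 (19.8 CPM, lowest), embryo 4 for Mcpt4 (2.6 CPM, highest) and frontal-suture embryo 1 for Fgfr2 (566 CPM, lowest in a narrow range). Without frontal-suture embryo 5, Gli1 stood at 77.2 to 90.3 CPM against 34.3 to 51.0 CPM. Whether these libraries differ in the tissue cut or in RNA quality was not tested.

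The front difference changed with age in the edgeR test of the difference itself for the genes listed here, in log2 units of E18.5 less E16.5. It was higher at E18.5 for Scn3a (5.37), Phex (3.93), Epyc (3.00), Tfap2b (2.66), Chrdl1 (2.56), Dkk1 (2.44) and Lgr6 (2.12). The same held for Inhba (1.51), Runx2 (1.46), Col1a1 (1.40), Ptch1 (0.98) and Fgfr2 (0.57). It was lower at E18.5 for Gja4 (-7.52), Gria4 (-6.53), Dpt (-5.57), Myh11 (-5.55), Myo16 (-5.27), Acta2 (-4.77), Pcdh20 (-4.67) and Tgfbi (-3.86). Smaller falls were those of Hhipl1 (-3.70), Foxl2os (-2.84), Cd34 (-2.80), Rgs5 (-2.65), Has2 (-2.39), Bmp5 (-2.06), Plk1 (-1.85) and Itgb3 (-1.70). The remaining falls were those of Adamts8 (-1.69), Rrm2 (-1.66), Mmp2 (-1.24), Notch1 (-1.06), Dcn (-1.06), Tgfb2 (-0.81) and Ccna2 (-0.77). These embryos come from other litters, and the part of litter in these changes was not tested.

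The front difference also departed from the difference between the mesenchymes of the same sutures at E18.5, by a test of that difference. It lay above the SM difference for Hhip (4.34), Mmp13 (4.17), Spp1 (4.08), Scn3a (3.83), Chrdl1 (3.78), Phex (3.59) and Gli1 (2.67), and for Sp7 (1.81), Ptch1 (1.77), Alpl (1.56), Top2a (0.92) and Fgfr2 (0.74). It lay below the SM difference for Mcpt4 (-7.88), Myh11 (-4.00), Acta2 (-3.81), Dcn (-2.48), Fmod (-1.57) and Col1a1 (-0.92). Fronts and SM came from the same embryos. In a fit of only their 20 libraries with the embryo as a block, Scn3a, Myh11, Fgfr2, Top2a and Col1a1 missed the threshold, with adjusted p-values of 0.0852 to 0.248 (edgeR).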

How the results depend on the processing

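The front difference was called for 3368 genes in the main edgeR fit. The count was 5241 with the second coronal libraries, 1826 with only the libraries compared and 2228 without frontal-suture libraries 2 and 5. Less the control offset it was 2060, and 1103 with the second coronal libraries. Relative to SM it was 394, 278 with only the 20 libraries of both sutures, 202 with these and the embryo as the replicate block, and 205 without frontal-suture libraries 2 and 5. The change with age was called for 3968 genes, 1554 with the second coronal libraries and 1635 without frontal-suture libraries 2 and 5. Leaving out 1 replicate at a time gave 2309 to 3428 genes for the front difference, 1855 to 2149 less the offset, 266 to 514 relative to SM and 2838 to 4195 for the change with age. Leaving out 1 control library gave 574 to 697 genes for the offset, against 871, with 574 when the complete frontal suture of set IF was left out. The other settings tried kept these counts within 1.5 times the main count.

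Higher genes made up 59.39% of calls relative to SM and 32.49% with voom, 49.22% of calls for the change with age and 30.59% with voom or 6.151% with total counts, which moved the median of all genes by -0.619. They made up 18.03% of offset calls and 51.7% with total counts, and 41.56% of calls between complete sutures and 60.26% with total counts.

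Same-numbered libraries of the 2 edges had residual correlations of -0.198 to 0.048 across genes, with 0 of 5 best with their own number, so the embryos share only a number. The replicate block gave 3348 genes for the front difference, 2097 less the offset, 399 relative to SM and 3907 for the change with age.

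Among the 23 named genes, whose choice by separate groups and large folds leaves little room for a change of sign, Hhipl1 and Gja4, less the offset, missed the threshold under 1 alternative each. Among the genes recomputed singly under each alternative, those called in both fits whose sign turned were Pth1r and Inhba. Leaving out 1 replicate at a time gave -0.58 to 0.08 for Ibsp (-0.60 to 0.06 less the offset), -0.37 to 0.10 for Sp7 (-0.43 to 0.01 less the offset) and -0.16 to 0.08 for Ptch1. Values above 0 arose without coronal-suture replicate 2 for each of the 3, and for Ptch1 also without frontal-suture replicates 2 (0.08) or 3 (0.02). Without frontal-suture libraries 2 and 5, Sp7 read 0.17 (0.12 less the offset). The sign of Sp7 turned under 3 of 21 alternatives (2 less the offset). Ptch1 read 0.10 with median-ratio scaling and in DESeq2, and Runx2, less the offset, 0.01 in both. With the second coronal libraries Ptch1 read 0.26, Pth1r -0.17 and, less the offset, Runx2 0.24. Within the shared litter Pth1r read -0.31 and Inhba 0.57. The causes were not tested. Gdf6 and Fgfr2 lost their calls most often. The frontal-suture libraries had less than the depth of the coronal-suture libraries, which limits genes of few reads.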
